A study of Mus musculus with 11 samples.

Results

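Gene expression was compared between CD8 T cells that had been sorted from inflamed mouse kidneys as CD127-PD-1+ and CD8 T cells sorted from the same kind of kidneys as CD127+PD-1-. The comparison rests on 6 of the 11 labelled libraries of the series, 3 for each CD8 population, which were chosen by their sort labels, and the other 5 libraries are CD4 cells sorted the same way. All groups came from mice labelled WT that had been immunised with recombinant mouse myeloperoxidase (MPO) and then given low-dose sheep globulin against mouse basement membrane to trigger glomerulonephritis, and kidneys were taken 21 days later. No untreated mice are used here, so both CD8 populations share the immunisation and the disease. For strain, sex and age of the mice, the sources used here give nothing. Each library is a pool of cells from 3 mice, so the spread between libraries is a spread between pools, and the labels do not say whether the populations of a given number came from the same pool.

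CD127 is the alpha chain of the interleukin-7 (IL-7) receptor, which carries survival signals to naive and memory T cells through the common gamma chain, the kinases JAK1 and JAK3 and the factor STAT5. PD-1 is an inhibitory receptor that T cells put on their surface after antigen stimulation and keep when stimulation goes on. CD8 T cells that lose CD127 and carry PD-1 are known from acute effector responses and from chronic stimulation, where the factor TOX and further inhibitory receptors are also found. MPO is an enzyme of neutrophil granules and a target of autoimmunity in vasculitis of the kidney, in which macrophages and neutrophils are also present.

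Library totals of the 6 CD8 libraries ran from 12517415 to 16057310 counts, and between 21148 and 21772 genes had counts in each. Values are CPM, which are counts divided by library size, scaled with TMM factors (trimmed mean of M values) and given library by library in replicate order with the CD127-PD-1+ population first. A gene was called when its adjusted p in the edgeR quasi-likelihood test was under 0.05. In these bulk samples, fewer cells of a type and less RNA per cell cannot be told apart. The labelled cell type was checked on its markers. Cd8a, which encodes the CD8 alpha chain, measured 754, 530.3 and 470.2 against 577, 493 and 656 CPM and Cd3e, a chain of the T cell receptor complex, 721, 481 and 444 against 536, 542 and 644 CPM, while Cd4 stayed at 9.71, 1.19 and 3.72 against 9.36, 6.23 and 4.02 CPM. The list of 16 CD8 and pan-T genes summed to 4330.1, 3401 and 2953 against 3728, 3588 and 4419 CPM. Mitochondrial ribosomal RNA took 35.7, 40.3 and 40.8 against 31.7, 28.6 and 31.8% of counts, with no overlap between the populations (exact two-sided permutation p = 0.1, the smallest that 3 against 3 libraries allow).

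Marker genes of other cell types were detected in the libraries, at levels that differed between the populations. Of 20 macrophage genes 18 were higher in CD127-PD-1+ libraries and 0 lower, none was at 0 in a whole population, and their sum was 2158, 3466 and 3454 against 677, 365 and 220.0 CPM. Genes of neutrophils summed to 48.1, 252 and 333 against 7.07, 24.1 and 3.19 CPM, those of major histocompatibility complex (MHC) class II and dendritic cells to 8708, 6885 and 11482 against 3841, 1772 and 936 CPM, and those of B and plasma cells to 588, 601 and 858 against 400.4, 481 and 259 CPM. Genes of plasmacytoid dendritic cells went the other way, at 510.2, 441 and 467 against 1439, 728 and 799 CPM. What part these cells' RNA had in the differences between the CD8 populations was not tested. Among the CD127+PD-1- libraries, replicate 3 stood apart, with the highest sums of cell cycle genes (G2/M list 1928, 2251 and 2532 against 763, 648 and 1997 CPM) and of cytotoxic granule genes (2398, 2619 and 1990.0 against 1870.1, 1316 and 2759.8 CPM).

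**Figure D1:**
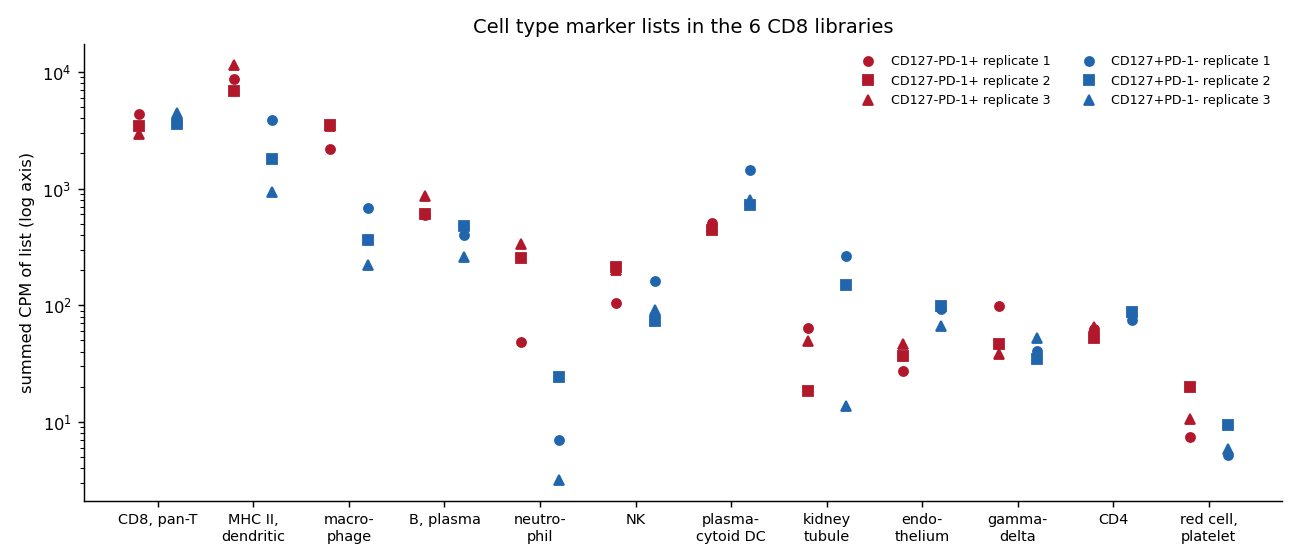
Summed CPM (log axis) of the CD8 and pan-T list and of 11 lists of other cell types in each of the 6 CD8 libraries, with CD127-PD-1+ libraries in red, CD127+PD-1- libraries in blue and marker shapes for replicates 1 to 3. The macrophage sums of the CD127-PD-1+ libraries lie at 2158 to 3466 CPM, above 220.0 to 677 CPM in the CD127+PD-1- libraries, while the CD8 and pan-T sums overlap.

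The genes of the sort markers followed the labels, which checks the sort and is not a finding. Il7r (ENSMUSG00000003882, chromosome 15, 9505788 to 9530176, reverse strand, GRCm38), which encodes CD127, measured 13.8, 17.5 and 17 against 352, 421 and 329 CPM (log2 fold change -4.51, SE 0.22, adjusted p = 2.72e-06). Pdcd1 (ENSMUSG00000026285, chromosome 1, 94038305 to 94052553, reverse strand), which encodes PD-1, measured 34.3, 16.5 and 16.5 against 2.36, 1.83 and 2.22 CPM (3.38, SE 0.38, adjusted p = 0.000218). Replicate 1 of the CD127-PD-1+ population was the highest for Pdcd1, and the other libraries of that population lay close together, with no overlap between the populations for either gene. Tox (ENSMUSG00000041272, chromosome 4, 6686353 to 6991557, reverse strand), a nuclear factor of chronically stimulated T cells that the sort did not use, measured 238, 86.1 and 119 against 49.7, 65 and 35.9 CPM (1.56, SE 0.35, adjusted p = 0.0112). The same replicate 1 was the highest for Tox too, and the populations did not overlap. Without it the log2 fold change of Tox was 1.03, still called.

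**Figure D2:**
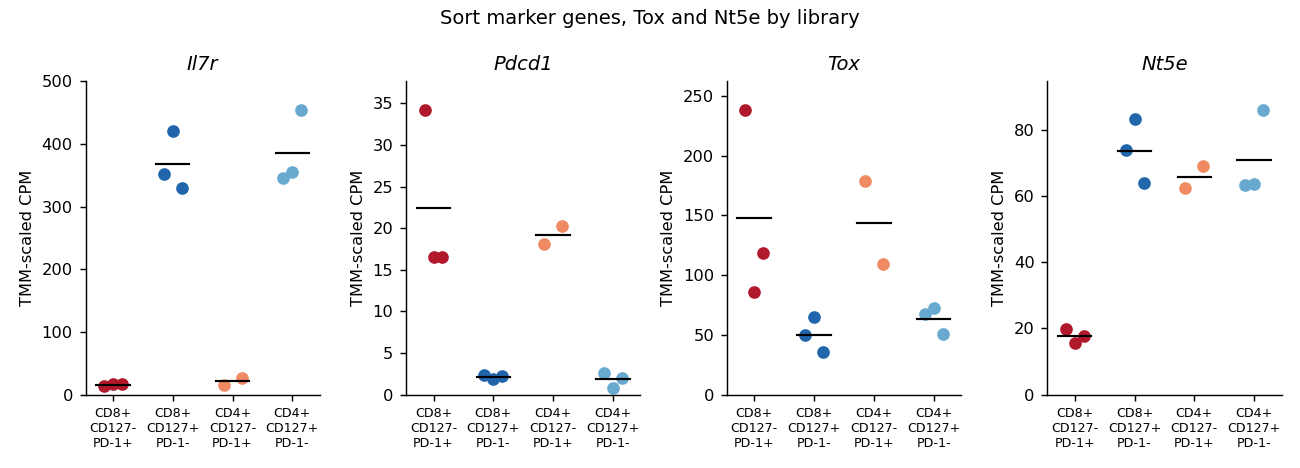
TMM-scaled CPM of Il7r, Pdcd1, Tox and Nt5e in each library (points) of the 4 sorted populations, with the mean of each population as a bar. Nt5e lies at 15.7 to 19.8 CPM in CD8+CD127-PD-1+ libraries and at 62.3 CPM or more in every library of the other populations.

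Over the whole transcriptome, 1481 of 16365 tested genes were called higher in CD8+CD127-PD-1+ cells, which is 9.05% of those tested, and 1074 were called lower, which is 6.56%. More than 2-fold changes numbered 1052 higher and 506 lower, and more than 16-fold changes 214 and 60. Of the 2555 called genes (15.6%) 2523 had no overlap between the 3 and 3 libraries. Among all tested genes 18.0% were higher and 16.4% lower without overlap. The median log2 fold change over all tested genes was 0.0094, which is the level against which the list medians are to be read. Counts of called list members are to be read against the 9.05% higher and 6.56% lower. The lists were chosen with earlier results of these data known, so their counts are descriptions. Leaving out single libraries moved the counts by over 1.5 times for CD127-PD-1+ replicate 2 (696 lower), CD127-PD-1+ replicate 3 (861 higher and 614 lower) and CD127+PD-1- replicate 2 (929 and 638).

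**Figure D3:**
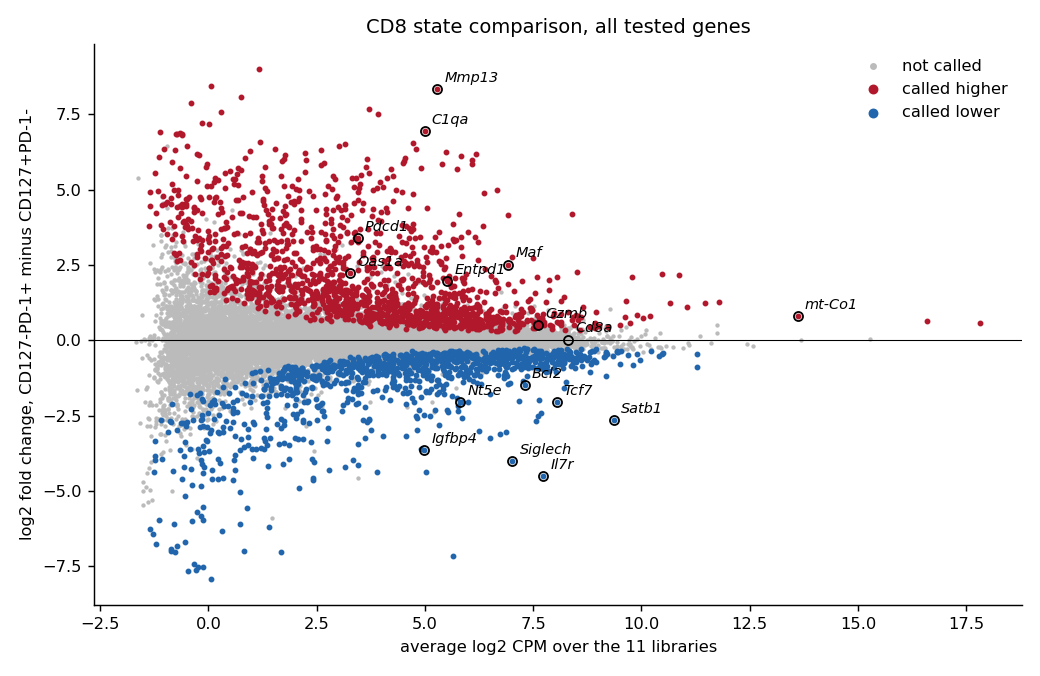
Log2 fold change (CD127-PD-1+ minus CD127+PD-1-) against average log2 CPM over the 11 libraries for all 16365 tested genes, with called genes in red (1481 higher) and blue (1074 lower) and 16 genes named. Increases past 16-fold (214) outnumber decreases of that size (60), and Cd8a and Gzmb lie among the genes that were not called.

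The change of 1 gene was called as different between CD8 and CD4 cells. It was Nt5e (ENSMUSG00000032420, chromosome 9, 88327197 to 88372092, forward strand), which encodes CD73, the surface enzyme that turns AMP into adenosine. It measured 19.8, 15.7 and 17.6 against 73.9, 83.2 and 63.8 CPM in CD8 cells (-2.06, SE 0.16, adjusted p = 3.20e-05), so that every CD127-PD-1+ library lay far below every CD127+PD-1- library. In CD4 cells it measured 62.3 and 69 CPM in the CD127-PD-1+ and 63.2, 63.6 and 86.1 CPM in the CD127+PD-1- libraries, which overlap. The change in CD8 cells differed from that in CD4 cells by -1.94 (SE 0.23, adjusted p = 0.0406), and Nt5e was the only one of 16365 genes (0.00611%) for which edgeR called this difference, with 897 at an unadjusted p under 0.05. DESeq2 called 56 genes for the same difference and limma-voom 1. The Nt5e difference kept its size but not its call without CD8+CD127-PD-1+ replicate 2 or 3, CD8+CD127+PD-1- replicate 1 or 2, CD4+CD127-PD-1+ replicate 2 or CD4+CD127+PD-1- replicate 1 or 2 (adjusted p = 0.121 to 0.228). The difference was also not called with counts thinned to the smallest library (0.0571) or with a block for replicate number by title (0.101) or description (0.234). The change within CD8 cells was called without each single CD8 library.

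Entpd1 (ENSMUSG00000048120, chromosome 19, 40612366 to 40741602, forward strand), which encodes CD39, the enzyme that makes AMP from ATP one step before CD73, went the opposite way to Nt5e in CD8 cells. It measured 91.4, 56.7 and 80.4 against 23, 14 and 21.3 CPM (1.97, SE 0.22, adjusted p = 0.000205), with no overlap. CD39 is also carried by macrophages, whose list is higher in the same libraries. Of the 9 genes in the adenosine list, which holds the enzymes, transporters and receptors other than CD39, Nt5e was the only one called, though 6 had an unadjusted p under 0.05. DESeq2 called 3 lower and 1 higher, as did edgeR without CD127+PD-1- replicate 3, and without CD127-PD-1+ replicate 1 it called 2 lower and 1 higher. The high-affinity adenosine receptor gene Adora2a stood at 0.45 (95% interval -0.06 to 0.97), the transporter gene Slc29a1 at 0.7 (0.21 to 1.2) and Dpp4, which encodes the adenosine deaminase binding protein CD26, at -0.6 (-1.01 to -0.19), none of them called with all libraries.

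Most genes of naive, memory and quiescent T cells fell. Of 20 tested, 18 were lower in CD127-PD-1+ cells and 0 higher, with a median log2 fold change of -2.04. Tcf7 (ENSMUSG00000000782, chromosome 11, 52252371 to 52283014, reverse strand), which encodes the factor TCF-1, measured 93.8, 101 and 109 against 400.0, 469 and 386 CPM (-2.05, SE 0.14, adjusted p = 2.12e-05), and its partner Lef1 measured 50.6, 49.3 and 46.1 against 306, 409 and 226 CPM (-2.69, SE 0.26, adjusted p = 0.000119). Satb1, a chromatin organiser, measured 103, 166 and 178 against 838, 1079 and 894 CPM (-2.65, SE 0.19, adjusted p = 2.30e-05). For these 3 factors every CD127-PD-1+ library lay far under every CD127+PD-1- library.

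Other genes of the same list do not encode nuclear factors. Pik3ip1, an inhibitor of PI3-kinase, measured 11, 9.19 and 10.8 against 57.4, 57.3 and 40.1 CPM (-2.32), and Igfbp4, which binds insulin-like growth factors, measured 2.78, 3.88 and 3.2 against 40.1, 55 and 28.3 CPM (-3.64). Rapgef4, an exchange factor activated by cyclic AMP, measured 5.04, 4.7 and 9.82 against 47.3, 77.6 and 29 CPM (-2.97), and Nsg2 measured 9.2, 9.19 and 15.6 against 78, 100.4 and 61.4 CPM (-2.82). None of these 4 genes overlapped between the populations, and each was called without each single CD8 library. The gut homing receptor gene Ccr9 measured 25.2, 9.56 and 9.0 against 203, 105 and 107 CPM (-3.24). Plasmacytoid dendritic cells carry this receptor as well, and the sum of their genes was lower in the same libraries. Btg1, an antiproliferative gene (-0.29, 95% interval -0.61 to 0.041), and the costimulatory receptor Cd27 (-0.007, -0.42 to 0.41) were the members that were not called.

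Further large decreases lay outside the naive list. Tdrp measured 2.85, 3.66 and 4.32 against 69.1, 109 and 49.1 CPM (-4.39). Fam101b, which encodes the filamin binding protein refilin B, measured 4.24, 1.94 and 5.95 against 47.5, 70.9 and 28.6 CPM (-3.59). Chdh, the mitochondrial choline dehydrogenase, measured 1.68, 2.69 and 2.16 against 30.6, 15.2 and 14 CPM (-3.19). All 3 were lower in every CD127-PD-1+ library than in any CD127+PD-1- library. An unconfirmed transcript named for its clone, RP24-176P19.6, was also among the 12 largest decreases, at 5.19, 3.51 and 3.79 against 37.5, 53.2 and 23.5 CPM (-3.19). It lies on the same strand within Lef1 (chromosome 3, 131136785 to 131139042, within 131110471 to 131224356), so its reads may not be separate from those of Lef1.

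Some genes of the IL-7 pathway and of related receptors, other than Il7r itself, were lower as well. In the list of 21 common gamma chain receptors, signalling parts and survival genes, 6 were lower and 2 higher, with a median of -0.15. Pim2, a survival kinase that STAT5 induces, measured 16.1, 12 and 13.5 against 48.2, 49.7 and 57.8 CPM (-1.9, SE 0.21, adjusted p = 0.000214). Il4ra, the IL-4 receptor alpha chain, measured 45.5, 55.4 and 56.2 against 95, 91.3 and 80.5 CPM (-0.76, SE 0.11, adjusted p = 0.000889), and Jak1, the kinase bound to CD127, measured 534, 505 and 497 against 725, 732 and 763 CPM (-0.53, SE 0.083, adjusted p = 0.00146). All 3 genes were lower in each CD127-PD-1+ library than in any CD127+PD-1- library.

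Survival genes of the BCL2 family moved in opposite directions. Bcl2, which IL-7 maintains, measured 100.4, 77.4 and 105 against 246, 311 and 231 CPM (-1.48), while Bcl2l1, which encodes BCL-XL, measured 9.86, 14.4 and 15.8 against 7.0, 7.4 and 8.73 CPM (0.79). Mcl1 (0.21, 95% interval -0.12 to 0.53) and the death gene Bcl2l11, which encodes BIM (-0.15, -0.54 to 0.23), were not called. Stat5a (-0.62) and Stat5b (-0.58) were lower, and the IL-9 receptor gene Il9r was higher (1.52). Il2rb, the receptor chain shared by IL-2 and IL-15, stood at 0.19 (-0.17 to 0.54), Il2rg, the common gamma chain itself, at -0.19 (-0.47 to 0.086) and Jak3 at 0.032 (-0.44 to 0.5). The higher calls of this list numbered 0 without CD127-PD-1+ replicate 3 or CD127+PD-1- replicate 2 and 1 without CD127-PD-1+ replicates 1 or 2 or CD127+PD-1- replicate 1. GIMAP genes, which encode GTPases of lymphocyte survival, had 2 lower of 8, namely Gimap6 at 266, 222 and 209 against 439, 425 and 440.0 CPM (-0.9) and Gimap9 at 28.6, 35.1 and 28.5 against 46.5, 40.6 and 53.6 CPM (-0.61). Gimap9 was not called without CD127-PD-1+ replicates 1 or 3 or CD127+PD-1- replicate 3 (adjusted p = 0.0609 to 0.0822).

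Inhibitory receptor genes other than Pdcd1 were 8 higher and 1 lower of 18, with a median of 1.08 and 5 without CD127+PD-1- replicate 2 for the higher calls. This list includes Entpd1. Havcr2, which encodes TIM-3, measured 206, 127.5 and 154 against 76.3, 40.4 and 41 CPM (1.63, SE 0.26, adjusted p = 0.00158). The receptor gene Tigit stood at 1.46, Ctla4 at 1.26 and Cd244, a SLAM family receptor, at 1.46, all called. Milr1, an inhibitory receptor of mast cells and other myeloid cells, measured 15.6, 25.4 and 25 against 8.76, 9.68 and 8.04 CPM (1.32), and Pilra (4.47) and Lilrb4 (2.73) are likewise known from myeloid cells. With the macrophage list at 2158 to 3466 against 220.0 to 677 CPM, the part of that RNA in these 3 genes was not tested. It was not tested for Havcr2 or the other members of this list either. Cd96 was the lower member (-0.72), not called without CD127-PD-1+ replicate 2 or 3 or CD127+PD-1- replicate 2. Lag3 stood at 1.02 (95% interval 0.21 to 1.82) and Cd160 at 0.28 (-0.27 to 0.83), neither of them called.

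Transcription factors of activated and chronically stimulated T cells were 10 higher and 0 lower of 24, with a median of 0.48. Maf measured 65.5, 59.7 and 72.3 against 9.7, 14.6 and 10.4 CPM (2.51, SE 0.17, adjusted p = 1.95e-05), Egr2, a factor induced by receptor signals that restrains activation, measured 49.2, 44.5 and 43.9 against 19.4, 24.9 and 18.9 CPM (1.12, SE 0.14, adjusted p = 0.000411), and Rbpj, the DNA-binding partner of NOTCH, measured 202, 142 and 148 against 73.9, 63.3 and 61.9 CPM (1.31, SE 0.19, adjusted p = 0.00108). None of the 3 overlapped between the populations. Prdm1, which encodes BLIMP-1 (1.45), Tox2 (3.61), Zeb2 (1.44), Bcl6 (1.25), Nfatc1 (0.74) and Irf4 (0.67) were higher too. Maf, Zeb2 and Prdm1 are also known from macrophages.

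Other members of this list were not called. Tbx21, which encodes T-bet, measured 27.6, 33.3 and 26.6 against 23.2, 18.9 and 34 CPM (0.2, 95% interval -0.22 to 0.62), and Eomes measured 81.3, 45.4 and 38.7 against 46.7, 44.4 and 57.2 CPM (0.16, -0.47 to 0.78). Runx3, which fixes the CD8 lineage, stood at 0.015 (-0.41 to 0.45). Of the NR4A receptors that T cell receptor signals induce, Nr4a1 stood at -0.069 (-0.4 to 0.26), Nr4a2 at 0.47 (-0.0095 to 0.95) and Nr4a3 at 0.28 (-0.18 to 0.75). The intervals of all 6 genes lie within a 2-fold change in either direction.

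**Figure D4:**
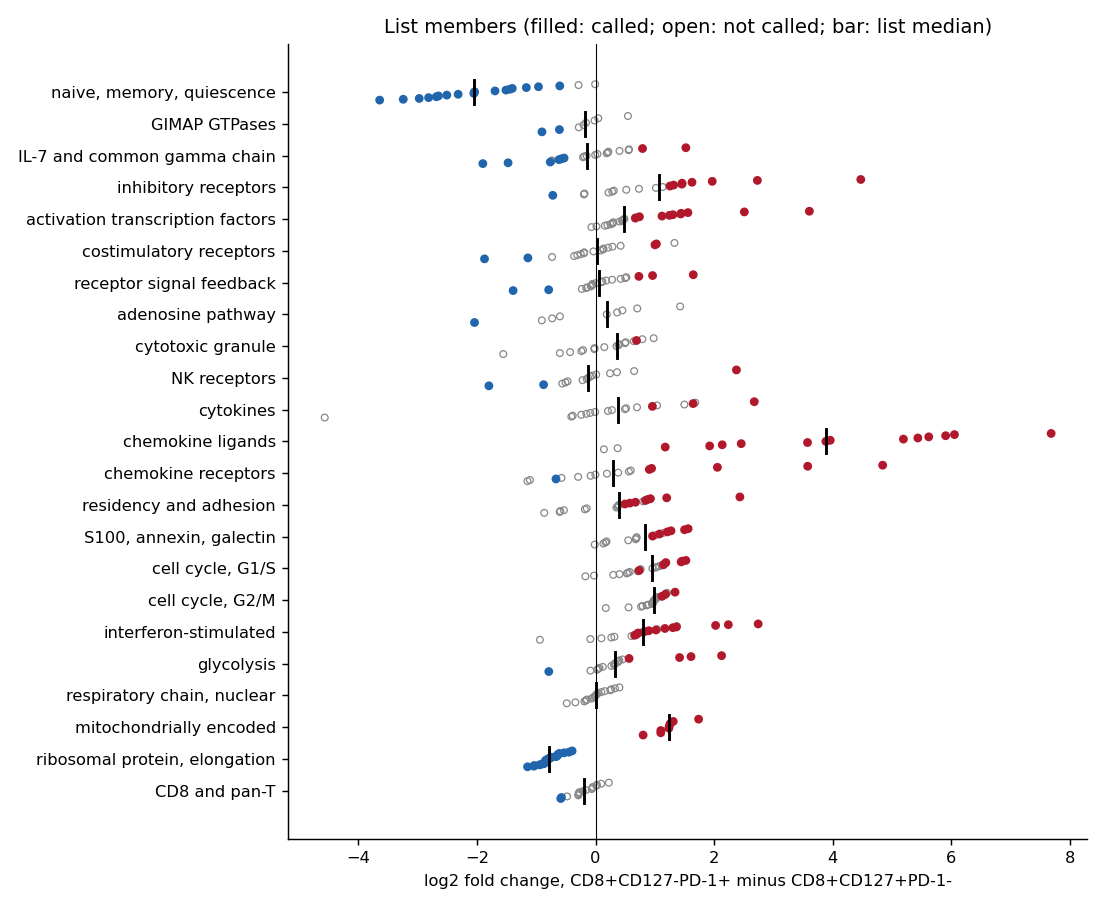
Log2 fold change (CD127-PD-1+ minus CD127+PD-1-) of each tested member of 23 gene lists, with called members filled, members not called open and the list median as a bar. Naive, memory and quiescence genes (18 of 20 lower) and ribosomal protein and elongation factor genes (24 of 26 lower) lie to the left, whereas the cytotoxic granule genes lie around their median of 0.35 with 1 of 17 called.

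Of 17 cytotoxic granule genes 1 was called higher and 0 lower, a share near the 9.05% higher and 6.56% lower over all genes, and the median was 0.35. Gzmb, the granzyme of effector cells, measured 336, 475 and 301 against 214, 104 and 463 CPM (0.51, 95% interval -0.55 to 1.57). Prf1, which encodes perforin, measured 33.6, 24.3 and 22.4 against 25.6, 24 and 31.8 CPM (-0.02, -0.6 to 0.56). For both genes CD127+PD-1- replicate 3 reached the level of the CD127-PD-1+ libraries or passed it. The call was Lamp1, a lysosome and granule membrane protein, at 97.1, 186 and 144 against 86.2, 81.5 and 97.5 CPM (0.68, SE 0.2, adjusted p = 0.0372), and it was not made without CD127-PD-1+ replicates 2 or 3 or CD127+PD-1- replicates 1 or 2 (adjusted p = 0.0952 to 0.149). Lamp1 was also not called in edgeR with the CD8 libraries only (adjusted p = 0.0678) or with a block for replicate number by title (0.0558) or description (0.092). With limma-voom its adjusted p was 0.0503. Without CD127+PD-1- replicate 3, 5 members were called higher. Gzma stood at -0.43 (-1.65 to 0.79) and Gzmk at 0.98 (0.11 to 1.85), neither of them called, and both intervals reach past a 2-fold change.

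Receptors of natural killer (NK) cells that CD8 cells also use were 1 higher and 2 lower of 15, with a median of -0.13. These shares of 6.67% and 13.3% lie near the 9.05% higher and 6.56% lower over all genes. Klrd1, which encodes CD94, measured 56.5, 82.7 and 48.8 against 102, 96.3 and 147 CPM (-0.88), and Klra6, a Ly49 receptor, measured 3.29, 2.32 and 1.41 against 9.77, 4.25 and 10.5 CPM (-1.8). Both were highest in CD127+PD-1- replicate 3. Klrd1 was not called without CD127-PD-1+ replicates 1 or 3 or CD127+PD-1- replicate 3 (adjusted p = 0.0934 to 0.124), nor Klra6 without CD127-PD-1+ replicates 2 or 3 or CD127+PD-1- replicates 1 or 3 (adjusted p = 0.0748 to 0.111). With counts thinned to the smallest library Klra6 was not called either (edgeR adjusted p = 0.0631). A block for replicate number by description also removed the calls of Klra6 (edgeR adjusted p = 0.0742) and Klrd1 (0.122). Klrb1b was the higher member, at 6.57, 16.2 and 15.2 against 3.84, 1.61 and 1.8 CPM (2.38). The activating receptor gene Klrk1 (NKG2D) stood at -0.22 (-0.86 to 0.42) and the inhibitory Klrc1 (NKG2A) at 0.01 (-0.82 to 0.84), neither of them called.

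Of 18 cytokine genes 3 were higher (16.7%, against 9.05% over all genes) and 0 lower, with a median of 0.39. Tnf measured 67.3, 72.3 and 74.9 against 36.3, 32.8 and 41.2 CPM (0.96, SE 0.16, adjusted p = 0.00207), the anti-inflammatory Il10 measured 11.7, 7.47 and 6.99 against 0.741, 1.39 and 1.94 CPM (2.68, SE 0.47, adjusted p = 0.00279) and Csf1, the growth factor of macrophages, measured 5.84, 15.2 and 17.2 against 5.59, 1.91 and 4.64 CPM (1.65, SE 0.47, adjusted p = 0.0362). Tnf and Il10 are made by macrophages as well as by T cells. Csf1 was not called without CD127-PD-1+ replicates 2 or 3 or CD127+PD-1- replicates 2 or 3 (adjusted p = 0.0566 to 0.13). The call was also lost in edgeR with the CD8 libraries only (adjusted p = 0.0552) and with a block for replicate number by title (0.0502) or description (0.0687). With limma-voom its adjusted p was 0.0848. Ifng, the interferon of type 1 responses, measured 269, 222 and 146 against 145, 93.4 and 213 CPM (0.5, 95% interval -0.08 to 1.07), and CD127+PD-1- replicate 3 lay within the range of the CD127-PD-1+ libraries.

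Chemokine ligand genes were 13 higher and 0 lower of 15, with a median of 3.89, or 2.95 when the 2 genes at 0 in every CD127+PD-1- library are set to the bound of 3 counts over that population. The members with the smallest p were the monocyte attractants Ccl12 at 18.2, 29.7 and 44.3 against 0.0674, 0.293 and 0.0693 CPM (7.69), Ccl9 at 23.2, 45.2 and 46.6 against 1.89, 2.79 and 2.7 CPM (3.96) and Ccl2 at 17.2, 34.9 and 28.3 against 1.01, 0.88 and 0.277 CPM (5.19), which are known from macrophages. CD8 cells and macrophages both make Ccl3 and Ccl4. Ccl3 measured 212, 203 and 213 against 45.2, 27.3 and 70.1 CPM (2.14) and Ccl4 measured 73.5, 70.9 and 58.3 against 32.6, 17.2 and 39.8 CPM (1.18), both called, while Ccl5 (0.14, 95% interval -0.63 to 0.91) and Xcl1 (0.37, -0.22 to 0.96) were not. The macrophage list measured 2158 to 3466 against 220.0 to 677 CPM in the same libraries, and its part in the chemokine genes was not tested.

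Chemokine receptor genes were 5 higher and 1 lower of 16 (median 0.29). Cx3cr1, the fractalkine receptor of effector T cells and monocytes, measured 49.7, 105 and 94.9 against 21.1, 12.2 and 26.5 CPM (2.06, SE 0.33, adjusted p = 0.00181). Ccr1, a receptor of myeloid cells, measured 3.8, 14.9 and 15.7 against 1.55, 0.66 and 0.624 CPM (3.58), and Cxcr2, the neutrophil receptor, measured 4.67, 10.8 and 48.1 against 0.606, 1.39 and 0.208 CPM (4.84). Cxcr2 spread widely within the CD127-PD-1+ population, and its highest library, replicate 3, also had the highest neutrophil sum. With limma-voom its adjusted p was 0.0636. Ccr2 (0.95), which guides effector T cells and monocytes, was called higher, whereas the T cell receptors for tissue entry Cxcr3 (0.56, 0.11 to 1.01) and Cxcr6 (0.59, -0.0013 to 1.19) were not. The higher calls numbered 3 without CD127-PD-1+ replicates 1, 2 or 3 or CD127+PD-1- replicates 1 or 2.

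Adhesion and residency genes were 8 higher and 0 lower of 19 (median 0.39). Rgs16, a regulator of G protein signals, measured 148, 38.1 and 45 against 13.7, 8.87 and 20.2 CPM (2.43, SE 0.48, adjusted p = 0.00584), Itgb1, the integrin beta 1 chain, measured 612, 650.5 and 656 against 323, 255 and 431 CPM (0.93, SE 0.2, adjusted p = 0.00866) and P2rx7, the receptor for extracellular ATP, measured 54.5, 61.6 and 57.3 against 29.6, 25.1 and 39.8 CPM (0.87, SE 0.17, adjusted p = 0.00565). All 3 were separate between the populations. Without CD127-PD-1+ replicate 1, the highest for Rgs16, its log2 fold change was 1.544. Itga4 (0.58), Cd44 (0.67), Rgs1 (0.84), Rgs2 (0.5) and Ahr (1.2) were higher too. The residency markers proper gave values below 0 without a call, namely Itgae, which encodes CD103 (-0.87, -2.03 to 0.29), and Cd69 (-0.6, -1.12 to -0.073). The higher calls numbered 4 without CD127-PD-1+ replicate 2 or CD127+PD-1- replicate 2 and 5 without CD127-PD-1+ replicate 3.

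Costimulatory receptor genes were 2 higher and 2 lower of 18 (median 0.024). These shares of 11.1% each way lie near the 9.05% higher and 6.56% lower over all genes. Tnfrsf26 measured 12.1, 11.7 and 16 against 45.1, 61.4 and 39.6 CPM (-1.87, SE 0.2, adjusted p = 0.000179) and Slamf6, a marker of T cells that keep TCF-1, measured 57, 66 and 90.0 against 149, 183 and 138 CPM (-1.14, SE 0.2, adjusted p = 0.00279). Tnfrsf1b, the second receptor for tumour necrosis factor, measured 116, 113 and 109.5 against 53.1, 45.5 and 67.5 CPM (1.03, SE 0.18, adjusted p = 0.00287), and Slamf7 stood at 1.0. Cd28 (0.13, -0.24 to 0.51) and Icos (0.13, -0.45 to 0.7) were not called. The higher calls numbered 1 without CD127-PD-1+ replicates 1, 2 or 3 or CD127+PD-1- replicates 1 or 2 and 4 without CD127+PD-1- replicate 3.

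Feedback genes of T cell receptor signalling were 3 higher and 2 lower of 20 (median 0.054). These shares of 15% and 10% lie near the 9.05% higher and 6.56% lower over all genes. Dgka, a lipid kinase that dampens RAS signals and is high in resting T cells, measured 171, 130.4 and 160.2 against 409, 462 and 341 CPM (-1.39, SE 0.15, adjusted p = 0.000194). Sla2, an adaptor that lowers receptor levels, measured 29.9, 22.2 and 21.1 against 42, 39.8 and 45 CPM (-0.79), and Dusp6, a phosphatase of ERK, measured 39.5, 39.5 and 33.9 against 20.9, 17.1 and 20.0 CPM (0.96). Each of these genes had no overlap between the populations. Ptpn22 (-0.051, -0.36 to 0.26), Cblb (0.0045, -0.32 to 0.33) and Tnfaip3 (-0.14, -0.6 to 0.32) were not called. The higher calls numbered 1 without CD127-PD-1+ replicate 1 or CD127+PD-1- replicate 2.

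Cell cycle genes had medians near 2-fold, and how many were called depended on single libraries. Of 23 G1/S genes 6 were higher (median 0.96) and of 24 G2/M genes 3 (median 0.99), with none lower in either list, against 9.05% higher over all genes. At an unadjusted p under 0.05 were 17 G1/S and 18 G2/M genes. Mki67, which encodes the proliferation antigen Ki-67, measured 800.3, 1007 and 1076 against 311, 240.2 and 851 CPM (1.04, 95% interval 0.17 to 1.91) and was not called. Top2a, the topoisomerase of dividing cells, measured 318, 326 and 422 against 123, 93 and 315 CPM (1.01, 0.19 to 1.83). In both genes CD127+PD-1- replicate 3 lay among or just under the CD127-PD-1+ libraries, and the other CD127+PD-1- libraries lay far under them.

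The called G1/S genes with the smallest p were Gins2, a part of the replicative helicase, at 10.9, 17.5 and 17.1 against 6.06, 3.3 and 7.14 CPM (1.46, SE 0.34, adjusted p = 0.0141), the histone chaperone subunit Chaf1a at 7.67, 11.7 and 11.8 against 2.42, 3.89 and 5.13 CPM (1.44) and the replication factor Mcm10 at 12.3, 17.3 and 19.9 against 5.73, 2.27 and 9.15 CPM (1.52). The called G2/M genes were the kinetochore motor Cenpe at 98.8, 110.5 and 131 against 29, 27.4 and 77.8 CPM (1.34, SE 0.35, adjusted p = 0.0238), the mitotic kinase Aurkb at 32.3, 32.3 and 41.4 against 10.4, 9.6 and 26.7 CPM (1.18) and the cyclin Ccnb2 at 23.2, 30.9 and 30.1 against 9.43, 8.8 and 20.5 CPM (1.12). CD127+PD-1- replicate 3 was the highest of its population for Cenpe, Aurkb and Ccnb2. Without it, the log2 fold change of Aurkb was 1.821, and 16 G1/S and 22 G2/M genes were called higher. G2/M calls numbered 1 without CD127-PD-1+ replicate 1 and 0 without CD127-PD-1+ replicate 2 or 3 or CD127+PD-1- replicate 1 or 2. G1/S calls numbered 1 without CD127+PD-1- replicate 1 and 0 without CD127-PD-1+ replicate 2 or 3 or CD127+PD-1- replicate 2. Aurkb was not called in edgeR with the CD8 libraries only (adjusted p = 0.0678) or with a block for replicate number by description (0.0631).

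**Figure D5:**
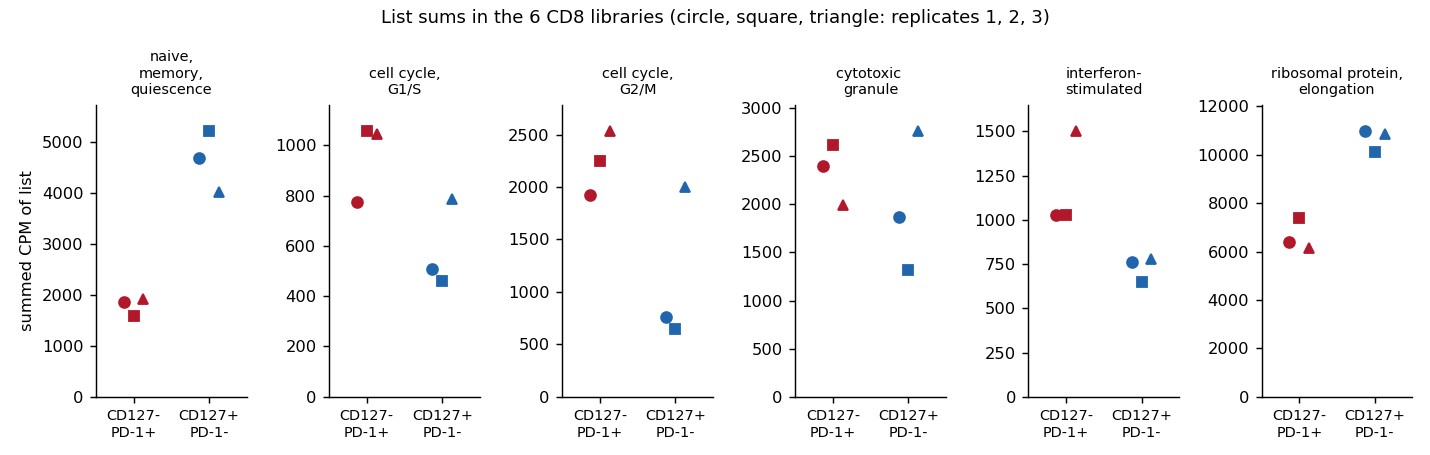
Summed CPM of 6 gene lists in the 6 CD8 libraries, with circles, squares and triangles for replicates 1, 2 and 3 of each population. In the G2/M panel CD127+PD-1- replicate 3 (1997 CPM) lies among the CD127-PD-1+ libraries (1928 to 2532 CPM) while the other CD127+PD-1- libraries lie at 763 and 648 CPM; the naive, interferon and ribosomal panels show no overlap.

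Promoter sequence was not used to choose the lists. The motif TTTGAA, the core of the cell cycle homology element known from mitotic promoters, was searched on both strands in the 250 bases before each RefSeq gene start (GRCm38.p6), where 20 of the 24 genes had an entry. It was present for 8 of 20 G2/M genes, against 16% of all 32851 promoters of that length and 18.3% of genes, and 12 of 20 lacked it. CCAAT, also on both strands, was present for 17 of 20 G2/M and 13 of 20 G1/S genes, against 33.8% of promoters and 37.5% of genes. Ccnb2, which was called, and Cdk1, the mitotic kinase, which was not (0.97), are shown as examples of 1 copy of the motif (capitals) in 60 bases on the gene's strand, and a match is a description of these letters and not a site.
Ccnb2 (chr9:70421689-70421748, reverse strand): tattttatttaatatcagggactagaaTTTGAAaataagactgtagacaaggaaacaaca
Cdk1 (chr10:69352951-69353010, reverse strand): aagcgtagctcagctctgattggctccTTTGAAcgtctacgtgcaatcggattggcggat

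Interferon-stimulated genes, which interferon receptors switch on through STAT2 and IRF9 among other factors, were 12 higher and 0 lower of 22 (median 0.81). Oas1a, an antiviral oligoadenylate synthetase, measured 10.5, 17.8 and 21.3 against 3.7, 3.59 and 3.19 CPM (2.24, SE 0.27, adjusted p = 0.000342). Rtp4 measured 23.2, 28.4 and 35.3 against 11.3, 9.16 and 14.6 CPM (1.3, SE 0.2, adjusted p = 0.00142), and Rsad2, which encodes viperin, measured 20.1, 34.4 and 54.8 against 7.54, 11 and 8.32 CPM (2.03, SE 0.32, adjusted p = 0.00147). The list summed to 1028, 1027 and 1501 against 761, 649 and 777 CPM, with CD127-PD-1+ replicate 3 the highest. Oasl2 (2.74), Isg15 (1.17), Mx1 (1.02), Oas3 (0.72) and Stat2 (0.66) were higher too, whereas Irf7 (-0.088, -0.37 to 0.2) was not called. The calls numbered 7 without CD127-PD-1+ replicate 3 or CD127+PD-1- replicate 2. Macrophages also express these genes, and the part of macrophage RNA, whose list was higher in the same libraries, was not tested.

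The same 250 bases were searched on both strands for the core of the interferon-stimulated response element, written as GAAA, any 2 bases and GAAA again, and copies may overlap. It was present for 9 of the 15 list genes with an entry, among them 5 of the 7 called and 4 of the 8 not called, against 2.98% of all promoters and 3.46% of genes. The copies nearest the gene start in 4 called genes are shown in capitals within 60 bases on the gene's strand, to let the shared letters be seen.
Isg15 (chr4:156200850-156200909, reverse strand): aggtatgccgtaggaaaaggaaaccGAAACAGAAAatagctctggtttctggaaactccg
Oas1a (chr5:120907526-120907585, reverse strand): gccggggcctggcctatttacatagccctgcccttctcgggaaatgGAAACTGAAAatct
Rsad2 (chr12:26456538-26456597, reverse strand): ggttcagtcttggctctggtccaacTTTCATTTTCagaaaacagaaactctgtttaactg
Stat2 (chr10:128270251-128270310, forward strand): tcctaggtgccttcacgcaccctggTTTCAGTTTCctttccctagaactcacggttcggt
In Rsad2 and Stat2 the capitals carry the element on the opposite strand.

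Ribosomal protein and elongation factor genes fell together, 24 of 26 with 0 higher and a median of -0.79, and their sum was 6394, 7379 and 6156 against 10972, 10109 and 10847 CPM. Rpl4 measured 892, 863 and 866 against 1398, 1322 and 1374 CPM (-0.64, SE 0.094, adjusted p = 0.000995), Rpl5 measured 204, 238 and 208 against 431, 405 and 386 CPM (-0.91) and Rpl13 measured 156, 187 and 161 against 382, 349 and 306 CPM (-1.04). All are proteins of the large ribosomal subunit, and none overlapped between the populations. Eef1a1, an elongation factor gene, stood at -0.45. The lower calls numbered 10 without CD127-PD-1+ replicate 3 and 15 without CD127-PD-1+ replicate 1 or CD127+PD-1- replicate 1. Reads of ribosomal protein genes can be split with their processed copies, which makes their levels uncertain.

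Genes encoded by mitochondria went the other way, with 8 of 8 tested higher (median 1.24). The list holds 13 genes, and the others did not pass the filter on low counts. The complex I subunit mt-Nd5 measured 4015, 4501 and 6259 against 2145, 2233 and 1857 CPM (1.24), mt-Nd4 measured 2312, 2656 and 3803 against 1240.4, 1350.0 and 1132 CPM (1.24) and mt-Co1, a subunit of complex IV, measured 15069.5, 17911 and 22276 against 11169, 10142 and 10368 CPM (0.8). The highest level of each was in CD127-PD-1+ replicate 3, which also had the highest share of mitochondrial ribosomal RNA, and the part of RNA quality was not tested. Nuclear genes of the respiratory chain gave 0 higher and 0 lower calls of 18 (median 0.0019), and Atp5b, a subunit of ATP synthase, measured 434, 505 and 508 against 475, 453 and 496 CPM (0.023, 95% interval -0.22 to 0.26). With DESeq2 and with limma-voom the numbers called among these nuclear genes were 0 and 0, and 0 had an unadjusted edgeR p under 0.05.

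Glycolysis genes were 4 higher and 1 lower of 18 (median 0.33). Pfkfb3, which makes the activator of phosphofructokinase, measured 63.2, 70.4 and 82.3 against 31.7, 27.9 and 21.2 CPM (1.42, SE 0.18, adjusted p = 0.000499), the hexokinase Hk2 measured 17.5, 27.8 and 30.7 against 7.54, 7.77 and 9.56 CPM (1.61) and the lactate exporter Slc16a3 measured 3.36, 8.51 and 11.8 against 1.35, 2.2 and 1.87 CPM (2.13). These 3 genes showed no overlap. Slc16a1, the other lactate transporter, was lower (-0.79), and Slc2a1, the glucose transporter GLUT1, stood at -0.087 (-0.38 to 0.21), not called. S100, annexin and galectin genes of activated cells were 6 higher and 0 lower of 16 (median 0.83), led by S100a11 at 106, 83.8 and 94.3 against 49.5, 34.8 and 50.1 CPM (1.08), Anxa1 at 26.1, 43.7 and 41.1 against 16.4, 10.9 and 10.3 CPM (1.56) and Anxa4 at 25.9, 22.2 and 19.8 against 11.8, 7.18 and 9.08 CPM (1.27). Macrophages and neutrophils carry these genes too, and their part was not tested.

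Most of the 12 largest increases among genes whose average log2 CPM reached 4 were genes known from macrophages and other myeloid cells. The matrix proteases Mmp13 at 47.5, 60.4 and 152 against 0.0674, 0.733 and 0 CPM (8.34) and Mmp12 at 62.2, 86.3 and 176 against 2.02, 1.32 and 0.901 CPM (6.24) were among them. So were the complement genes C1qa at 36.4, 73.8 and 89.7 against 0.404, 0.733 and 0.485 CPM (6.93) and C1qb at 75.2, 189.7 and 171 against 2.09, 3.59 and 1.25 CPM (5.98). The complement receptor C3ar1, of the macrophage list, measured 102, 140.3 and 152 against 2.49, 2.2 and 2.08 CPM (5.86). In each of these genes all CD127-PD-1+ libraries lay far above all CD127+PD-1- libraries. The macrophage surface genes Adgre1, which encodes F4/80, and Mrc1, the mannose receptor, measured 87.9, 116 and 149 against 1.41, 3.15 and 0.554 CPM (6.11) and 70.8, 159 and 152 against 1.15, 3.59 and 0.554 CPM (6.19). The scavenger receptor Stab1 (6.56), the Ly49 family gene Klra2 (6.33), Ms4a7 (6.04), the integrin chain Itga9 (5.95, or 9.254 without CD127+PD-1- replicate 2), the activating receptor Lilra5 (5.88) and the transporter gene Abca9 (5.86) made up the rest of the 12.

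Marker genes of other blood and kidney cells were measured too. In the list of 10 MHC class II and dendritic cell genes 5 were higher and 0 lower, against 9.05% higher over all genes. MHC class II genes measured 3288, 2709 and 4468 against 1322, 673 and 344 CPM for the invariant chain Cd74 (2.16), 2573, 1986 and 3519 against 1028, 494 and 227 CPM for H2-Aa (2.21) and 645, 606 and 925 against 290.4, 119.5 and 46.8 CPM for H2-Eb1 (2.25). All 3 were not called without CD127+PD-1- replicate 2, nor were H2-Aa and H2-Eb1 without CD127-PD-1+ replicate 3, and list calls numbered 0 without CD127+PD-1- replicate 2, 1 without CD127-PD-1+ replicate 3 and 3 without CD127-PD-1+ replicates 1 or 2. Neutrophil genes were 7 higher of 9, with Csf3r at 19.6, 52.7 and 87 against 2.96, 2.93 and 0.554 CPM (4.62) and S100a9 at 9.71, 75.7 and 84.3 against 2.09, 5.94 and 0.97 CPM (4.24). CD127-PD-1+ replicate 1 had the least of both in its population. B and plasma cell genes were 7 higher of 11, with the antibody gene Igkc at 155, 156 and 106 against 23.2, 69.4 and 13.4 CPM (1.98), the receptor chain Cd79b at 7.89, 16.1 and 24.6 against 4.65, 7.33 and 2.98 CPM (1.7) and the factor Ebf1 at 26.7, 29.1 and 58 against 5.39, 10.2 and 2.98 CPM (2.62), and they numbered 0 without CD127+PD-1- replicate 1 and 1 without CD127-PD-1+ replicates 2 or 3 or CD127+PD-1- replicate 3. Igkc was not called without CD127-PD-1+ replicate 2 or CD127+PD-1- replicate 1 (adjusted p = 0.0514 to 0.0632), Cd79b without CD127-PD-1+ replicates 2 or 3 or CD127+PD-1- replicates 1 or 3 (adjusted p = 0.0518 to 0.0938) and Ebf1 without CD127-PD-1+ replicate 3 or CD127+PD-1- replicates 1 or 3 (adjusted p = 0.0627 to 0.0923). The platelet gene Pf4 measured 1.53, 13.4 and 6.18 against 0.269, 0.22 and 0.277 CPM (4.73), with an adjusted p of 0.0632 in limma-voom.

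Lower in CD127-PD-1+ libraries were 4 of 10 plasmacytoid dendritic cell genes, with the lectin Siglech at 20.1, 6.05 and 6.92 against 289, 102 and 141 CPM (-4.01), the muscle-type cytochrome subunit Cox6a2 at 1.61, 0.597 and 0.67 against 14.1, 6.23 and 9.01 CPM (-3.34) and the factor Spib at 12.3, 16.1 and 19.5 against 68.6, 36.7 and 50.7 CPM (-1.7). The CD127+PD-1- libraries were higher in each case. Of 4 endothelial genes tested 2 were lower, Cdh5 at 0.876, 0.523 and 1.12 against 14.3, 5.5 and 6.58 CPM (-3.38) and Pecam1, which leukocytes also carry, at 25.4, 33.2 and 43.5 against 73.2, 86.1 and 54.3 CPM (-1.06). All 11 kidney tubule genes tested had values below 0 (median -1.29) without a call, with 1 at an unadjusted p under 0.05 and 0 called by DESeq2. Without the filter on low counts, edgeR called 2 of them lower. Umod, the tubule gene for uromodulin, measured 30.2, 5.0 and 9.08 against 155, 22.9 and 4.3 CPM, and CD127+PD-1- replicate 1 was the highest.

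Among markers of other lymphocytes, CD4 lineage genes gave 1 higher and 1 lower call of 6. These shares of 16.7% each way stand beside 9.05% higher and 6.56% lower over all genes. Tnfsf8, the CD30 ligand, measured 7.08, 6.2 and 11 against 36.3, 52.1 and 39.4 CPM (-2.39) and Zbtb7b, which encodes the CD4 lineage factor ThPOK, measured 7.6, 11.9 and 13.3 against 5.59, 4.18 and 5.68 CPM (1.09), not called without CD127-PD-1+ replicate 3 or CD127+PD-1- replicate 2 (adjusted p = 0.0534 to 0.0541). Of 7 genes of gamma-delta and innate-like T cells 1 rose and 2 fell (14.3% and 28.6%, against the same shares over all genes). The innate T cell factor Zbtb16 measured 3.51, 6.42 and 5.73 against 0.741, 0.22 and 0.97 CPM (2.99), the IL-25 receptor chain Il17rb measured 0.949, 0.896 and 0.744 against 4.45, 2.42 and 3.26 CPM (-1.96) and Cd163l1, a marker of IL-17-producing gamma-delta cells, measured 0.365, 0.896 and 0.223 against 6.26, 8.43 and 8.52 CPM (-3.94). Cd163l1 was not called without CD127-PD-1+ replicates 1 or 3 (adjusted p = 0.058 to 0.0734), nor with limma-voom (adjusted p = 0.0612). Ncr1, the NK cell receptor NKp46, measured 7.01, 7.99 and 16.6 against 2.09, 2.64 and 3.26 CPM (1.98) and was not called without CD127-PD-1+ replicate 3 or CD127+PD-1- replicates 1 or 2 (adjusted p = 0.0719 to 0.101). Its call was also lost with a block for replicate number by description (edgeR adjusted p = 0.0661).

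Within the CD8 and pan-T list 0 genes were higher and 2 lower of 16 (12.5% lower, against 6.56% over all genes). The adaptor Skap1 measured 147, 108 and 106 against 168, 199.7 and 169.8 CPM (-0.58) and was not called without CD127-PD-1+ replicates 2 or 3 or CD127+PD-1- replicate 2 (adjusted p = 0.0602 to 0.0677). Cd8a stood at 0.024 (95% interval -0.61 to 0.66) and Cd8b1 at -0.21 (-1.0 to 0.57). Genes of tissue digestion stress were 2 higher and 4 lower of 16. Atf3 measured 129, 174 and 244 against 57.7, 41.9 and 36.9 CPM (2.0), Ier3 measured 17.4, 20.2 and 15.4 against 5.05, 6.16 and 8.8 CPM (1.4) and the heat shock co-chaperone Dnajb1 measured 599, 639 and 569 against 1030.4, 1242 and 900.1 CPM (-0.81). Jun (-0.56) and Junb (-0.6) fell, and of the 16 genes 11 had values below 0 and 5 above. The list summed to 7498, 7807 and 7997 against 9147, 8570 and 8528 CPM, lower in each CD127-PD-1+ library than in any CD127+PD-1- library.

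T cell receptor variable gene usage was summarised as the effective number of genes, the exponential of the Shannon entropy of read shares, which equals the number of genes when all are used evenly. For the alpha chain it was 26.7, 36.7 and 32.7 against 37.6, 44.9 and 46.9 Trav genes, lower in each CD127-PD-1+ library than in any CD127+PD-1- library (exact two-sided permutation p = 0.1, the smallest possible). By the inverse Simpson index, which weights common genes more, it was 14.5, 26.3 and 21.6 against 21.8, 33.9 and 36.6 Trav genes, and the populations overlapped (exact permutation p = 0.2). For the beta chain it was 13.2, 14.8 and 15.5 against 15.9, 15.6 and 14.7 Trbv genes (p = 0.4, exact permutation), and the ranges overlapped. The lowest value of both chains was in CD127-PD-1+ replicate 1, where Trbv15 took 26.4% of Trbv reads, against top genes at 12.3% to 14.9% in the other 5 libraries. Between 1248 and 1965 reads per library fell on Trbv genes and between 1138 and 1872 on Trav genes. Variable genes with near-identical copies share reads, so the shares of single genes are uncertain.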

How the data were processed

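RNA of sorted kidney T cells was amplified from total RNA with single primer isothermal amplification and sequenced as single reads, per the labels' protocols. The authors deposited raw counts per gene for each library, and STAR, featureCounts and GRCm38 are named in the submitters' processing notes. The sources used here do not give their versions, the annotation release or the use of strand. The table has 46078 genes, and 1 column without a label among the samples was not used. Library totals were 10572505 to 16057310 counts.

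edgeR 4.0.16 in R 4.3.3 (TMM scaling, filterByExpr with a minimum count of 10, 4 population means over the 11 libraries, quasi-likelihood test, Benjamini-Hochberg adjustment over all 16365 genes, threshold 0.05) gave every fold change, SE and adjusted p. Intervals are 95%. The design text speaks of separate experiments with pooled mice, and p-values measure the spread between those pools. Coordinates come from GENCODE M21 (GRCm38), and promoters from RefSeq (GRCm38.p6).

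Per-library values are given for the markers, for the 12 largest increases and decreases among called genes whose average log2 CPM reached 4, with no overlap (predicted genes, pseudogenes and receptor segments left out), and for the 3 called members of each list with the smallest p. Some members counted in the lists are not reported here by name. Other list members are examples, and a list without a call is represented by its member of highest average CPM. The members and lists were chosen with earlier results of these data known. On simulated data for this comparison with 15846 genes, 59 of 100 genes changed 2-fold and 98 of 100 changed 4-fold were recovered, with 8 unchanged genes called. The changed genes were drawn from those above a CPM floor, and no other difference between the populations was put in. Alternatives were other scalings, filters and tests (limma 3.58.1, DESeq2 1.42.0), CD8 libraries only, replicate blocks, no mitochondrial genes, thinning to 10572505 counts and leaving out each library.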

Additional observations from a re-analysis of the deposited data

Results flagged for a closer look

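The change of Nt5e between CD127-PD-1+ and CD127+PD-1- cells differed between CD8 and CD4 cells by -1.94 on the log2 scale (SE 0.23, edgeR adjusted p = 0.0406), by a test of that difference itself. It was lower in 3 of 3 CD8+CD127-PD-1+ libraries than in any CD8+CD127+PD-1- library, while the CD4 libraries overlapped. The call was lost with thinned counts (adjusted p = 0.0571) and without each of 7 single libraries (0.121 to 0.228). It was also lost with a block for replicate number by title (0.101) or description (0.234).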

How the results depend on the processing

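Counts of called CD8 genes stayed within 1.5 times of 1481 higher and 1074 lower under each alternative that kept the 6 CD8 libraries, from 1098 (stricter filter) to 1751 (no filter) higher and from 793 (replicate block by description number) to 1296 (DESeq2) lower. Leaving out single CD8 libraries gave 861 to 1495 higher and 614 to 1026 lower. The number of genes whose change differed between CD8 and CD4 cells was 56 with DESeq2, 85 without a filter, 0 with the replicate block by title number, 0 with thinned counts and 0 to 5 without single libraries. The Nt5e difference had an adjusted p of 0.101 and 0.234 with the replicate block by title and by description number and 0.0571 with thinned counts. Same-numbered CD8 libraries had correlations of deviations of 0.0921, -0.242 and -0.158 by title number, so the title numbers were not taken as pairs. The replicate block by title number called 1658 higher and 1117 lower. By description number, which is the number in the names of the count columns, only 2 pairs exist (0.0921 and 0.316). The labels do not say whether it marks a shared pool. That replicate block called 1274 higher and 793 lower, and 69.9% of the main calls were among them. Of 1754 values of named genes under alternatives, 1661 kept direction and call, 84 lost the call, 1 gained it and 8 reversed. The reversals were Atp5b, near 0 throughout (-0.01011 without a filter, -0.008246 with a stricter filter, -0.04612 with the description replicate block, -0.009268 without mitochondrial genes, and -0.01416 to 0.09424 without single CD8 libraries), and Umod, not called in the main analysis, at -3.109 to 0.1182 without single CD8 libraries and above 0 only without CD127+PD-1- replicate 1. The cause was not tested. The simulated recovery of 59 of 100 genes at 2-fold came from a setting with 165 genes called, against 2555 in the data, and with no changed genes of low CPM. It is therefore not the recovery rate in these data. With 3 libraries a population, changes of that size may often be missed.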

Other observations

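2 further genes were chosen after their values were seen. Gm14085, a predicted gene, measured 0.584, 1.19 and 0.446 against 104, 135 and 83.2 CPM (log2 fold change -7.16, SE 0.45, adjusted p = 1.51e-05, edgeR). Slc6a19, which encodes a transporter of neutral amino acids, measured 0.438, 0.224 and 0.744 against 12.5, 22.1 and 8.18 CPM (-4.9, SE 0.58, adjusted p = 0.000309, edgeR) in CD8 cells, and 0.202 and 0 CPM in CD4+CD127-PD-1+ and 0.166, 0.0768 and 0 CPM in CD4+CD127+PD-1- libraries. The CD8+CD127+PD-1- libraries were the highest for Slc6a19.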
